A study of Mus musculus with 6 samples.

Results

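The genes examined were 6 Eph receptors (Epha2, Epha4, Epha5, Epha7, Ephb2, Ephb3) and 4 ephrins (Efna1, Efna5, Efnb1, Efnb2), chosen by name. The choice was made with earlier results of these data known. For each gene, every CUT&RUN peak in the gene body or within 50 kb either side was taken, at RefSeq positions of GRCm38. The 10 genes, of 21883 protein-coding genes in all, held 124 of the 108684 peaks of 4 libraries. These were 26 of 16020 peaks in H3K4me3 replicate 1, 24 of 16904 in H3K4me3 replicate 2, 29 of 33013 in MafA replicate 1 and 45 of 42747 in MafA replicate 2.

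The libraries came from MIN6, an established mouse insulin-secreting line used as a model of pancreatic beta cells, with 500000 cells per sample permeabilised in 0.01% digitonin. CUT&RUN cuts DNA out around an antibody by means of a tethered nuclease, so that sequenced fragments pile up where the antibody sat. The target antibody recognised endogenous MafA, another H3K4me3 (trimethylated lysine of histone H3, the positive control), and nonspecific IgG was the negative control, with 2 replicates each. All 3 groups were the same line with no genetic change or treatment in the labels. No IgG peak list was analysed here. The labels do not say whether replicates were separate cultures, so the spread between them may be technical.

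Eph receptors are receptor tyrosine kinases whose ligands, the ephrins, are themselves held in the membrane of the neighbouring cell. A-type ephrins are anchored by a lipid and B-type ephrins span the membrane, and contact can signal into both cells, forward through the receptor and in reverse through the ephrin. In islets, contact signals between EphA receptors and ephrin-A on neighbouring beta cells are known to tune insulin secretion to glucose. MafA is a transcription factor of mature beta cells that activates the insulin genes, and H3K4me3 marks the starts of active or poised genes.

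As a check on the labelled cell type, 9 of 10 beta cell marker genes, all but Ins1, had an H3K4me3 region of both replicates at most 1 kb from a gene end. So did 3 of 4 alpha cell markers (Gcg, Irx1 and Irx2), against 0 of 2 delta cell, 0 of 4 acinar, 0 of 3 duct, 0 of 3 endothelial and 0 of 3 fibroblast markers. Throughout, a region is the union of peaks of both replicates that share at least 1 bp. Its strength is the deposited fold enrichment of the strongest peak in each replicate, a ratio of the signal at the summit to the modelled background. Fold enrichments are the authors' own values. Fragments at a summit, recovered from the deposited ratio and p-value, give the depth behind each value. At these loci the median summit held 23 and 53 fragments in MafA replicates 1 and 2 and 485.5 and 268 in H3K4me3 replicates 1 and 2.

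At the starts of the genes, an H3K4me3 region of both replicates covered 9 of the 10. Across all protein-coding genes, 55.8% had an H3K4me3 region within 1 kb of a gene end. The exception was Ephb3, an EphB receptor, where replicate 1 had a peak of 331 bp with a fold enrichment of 3.18 and 59 fragments just downstream of the start and replicate 2 had none. Over promoter windows (250 bases before to 50 after a RefSeq start), the mark lay at those of the same 9 genes and at 55.4% of all. The region of both replicates nearest to Ephb3 was 41.4 kb downstream of its start, with a fold enrichment of 5.72 and 7.89.

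The strongest start was that of Epha5, a receptor for ephrin-A5, with a fold enrichment of 33.1 and 29.7 in replicates 1 and 2 (31.4 ± 2.40, mean ± SD, n = 2). Efna5, which encodes ephrin-A5, followed with 28.0 and 24.2 (26.1 ± 2.68). The values of these 2 genes did not overlap. Next by mean came Epha7 (24.1 and 16.1), Efnb1 (20.3 and 19.6) and Ephb2 (24.8 and 14.6), then Efnb2 (17.0 and 17.2) and Epha2 (15.7 and 17.6). From Epha7 to Epha2, each gene overlapped its neighbour in this order, and the highest value of Ephb2 lay above the lowest of Efna5. The lowest marked starts were Efna1, a ligand of EphA2, at 11.3 and 11.2, and Epha4, a receptor that binds ephrins of both classes, at 10.4 and 8.77, and their values overlapped neither each other nor those of Epha2. The median over all H3K4me3 regions was 14.9.

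The marked starts also differed in width. The region at Efna5 spanned 5687 bp, at the 99.4th percentile of all H3K4me3 regions, and that at Efnb1 spanned 4148 bp, at the 96.9th. Epha7 and Efna1 followed with 3697 and 3320 bp, and Epha2 had the narrowest, 1897 bp, near the median of 1837 bp. Epha5 combined the highest fold enrichment, at the 97.6th percentile, with a width of 2957 bp. The promoter windows of Efna5 and Epha5 also had the highest CpG ratio (observed over expected CpG) of the 10 genes, 1.10 and 1.00, at the 97.4th and 92.1st percentile of all protein-coding promoters. That of unmarked Ephb3 was 0.692, and with 1 unmarked promoter a relation of CpG ratio to the mark was not tested. The lowest was that of Epha2, 0.460.

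MafA regions found in both replicates overlapped the promoter windows of Efnb1, Efnb2 and Epha4, as they did 16.5% of promoter windows of protein-coding genes. The sequences of Efnb1 and Efnb2 are shown because both replicates had a peak over the window, and that of Efna1 because it carries the same MAF motif with no MafA peak over it. Capitals mark the MAF core TGCTGA, searched on both strands over each window of 300 bases (TCAGCA is the same motif on the other strand). Each sequence is the 250 bases before the RefSeq start, 5′ to 3′ on the strand of the gene, from RefSeq GRCm38.p6: chrX:99135811-99136060 on the plus strand for Efnb1, chr8:8661243-8661492 on the minus strand for Efnb2 and chr3:89280952-89281201 on the minus strand for Efna1.
Efnb1: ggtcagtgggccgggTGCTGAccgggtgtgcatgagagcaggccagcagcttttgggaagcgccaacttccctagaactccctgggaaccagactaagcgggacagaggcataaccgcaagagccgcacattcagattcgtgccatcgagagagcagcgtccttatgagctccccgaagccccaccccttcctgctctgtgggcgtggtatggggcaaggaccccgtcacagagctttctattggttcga
Efnb2: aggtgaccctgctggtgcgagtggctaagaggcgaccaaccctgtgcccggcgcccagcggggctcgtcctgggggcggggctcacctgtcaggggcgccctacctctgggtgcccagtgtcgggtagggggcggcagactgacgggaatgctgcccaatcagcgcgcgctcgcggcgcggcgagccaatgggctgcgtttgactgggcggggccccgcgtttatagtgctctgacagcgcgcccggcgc
Efna1: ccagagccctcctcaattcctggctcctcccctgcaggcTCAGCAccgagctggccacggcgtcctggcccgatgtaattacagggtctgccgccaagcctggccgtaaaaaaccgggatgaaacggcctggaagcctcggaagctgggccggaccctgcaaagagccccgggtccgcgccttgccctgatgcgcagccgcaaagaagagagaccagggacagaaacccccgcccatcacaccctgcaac

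The motif was present 235 bases before the start of Efnb1 and 211 bases before the outer start of Efna1, and its letters were not in the windows of the other 8 genes, nor in that of an inner start of Efna1. The MafA summit of replicate 1 at Efnb1 lay 25 bp from the motif and that of replicate 2 lay 527 bp from it. Of all 21262 promoter windows of protein-coding genes, 18.1% held the motif, and of the 3514 overlapped by a MafA region 18.7% did. Of those overlapped by an H3K4me3 region, whose median GC content of 62.3% was near the 61.7% of windows overlapped by MafA, 13.9% held it. A match is a description of letters and not of binding.

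Across the 10 loci, 23 MafA regions were found in both replicates. At least 1 lay at 8 of the 10 genes, 4 of 6 receptors and all 4 ephrins, where the share over all protein-coding genes was 66.1%. Within 10 kb the count was 6 genes, against 44%, and 4 genes (Epha2, Epha7, Efna5 and Efnb2) had at least 2 regions within 50 kb, against 46%. These shares of the members were near the background. Windows of the members were longer, with a median of 196.0 kb against 117.2 kb. Of protein-coding genes with a window of 150 to 250 kb, a range chosen after the data were seen, 80% had a MafA region, as did 80% of the members. For the other counts no share was taken over windows of like length. The density over the 10 windows was 10.2 regions per Mb, and that over the merged windows of all protein-coding genes was 12.6. The median fold enrichment of the 23 regions was 5.13, at the 39.2nd percentile of all MafA regions. Efna5 alone carried 11, and the other 9 genes together carried 12. The number depended on the replicates and the threshold: MafA replicate 2 taken alone had 45 peaks, and the 16020 strongest peaks of every library left 9 regions at 4 genes.

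**Figure D1:**
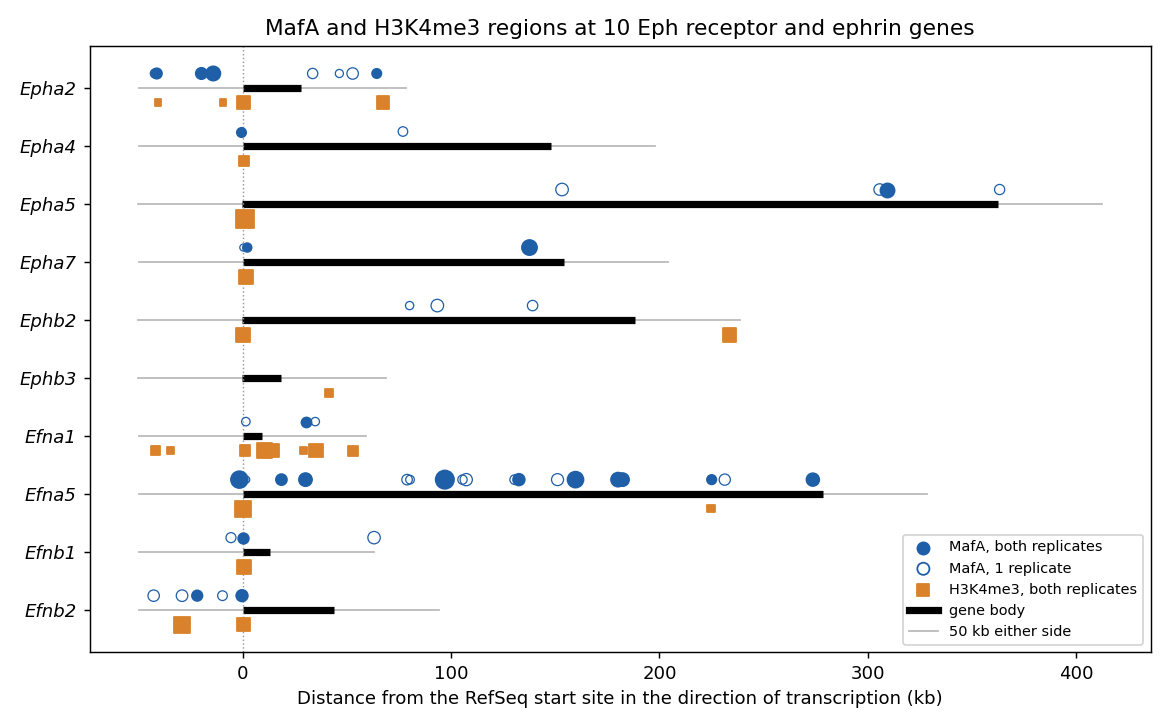
Each row is a gene, drawn from its RefSeq start (0) in the direction of transcription in kb, with the gene body in black and 50 kb either side in grey. Filled circles are MafA regions of both replicates, open circles MafA peaks of 1 replicate and squares H3K4me3 regions of both replicates, with area in proportion to fold enrichment on a scale of its own for each target. H3K4me3 regions sit at the start of 9 genes, while 11 of the 23 MafA regions lie at Efna5.

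Of the 23 regions, 13 lay inside a member gene, 8 upstream and 2 downstream. The nearest protein-coding gene was the member itself for 19. The other 4 were nearest to Arhgef19 and Fam131c at the Epha2 locus, Krtcap2 at the Efna1 locus and Arglu1 at the Efnb2 locus. An H3K4me3 region was overlapped by 9 of the 23 (39.1%), against 23.5% of all MafA regions. Among the strongest peaks of every library, picked by fold enrichment, this count fell to 1, and with MafA replicate 2 taken alone it was 15 of 45. At 5 of the 9 marked starts the H3K4me3 region overlapped a MafA region. The share over all marked starts was not taken, so whether 5 of 9 is unusual cannot be told.

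Peaks of the antibodies were then compared by library. MafA libraries had 29 and 45 peaks at the loci and H3K4me3 libraries 26 and 24, a difference of 12 in the means that turned to -12 with equal numbers of the strongest peaks from every library. The median peak width was 689 and 738 bp for MafA and 1710.5 and 1968.5 bp for H3K4me3, a difference of -1126 bp. Within 1 kb of an end of any gene lay 10.3% and 22.2% of MafA summits and 73.1% and 62.5% of H3K4me3 summits, a difference of -51.5 percentage points. The difference in peak number was 5 when −log10 q had to reach 5 (p = 1 by exact permutation), and from 4 without MafA replicate 2 to 20 without MafA replicate 1, so it rested on the threshold and the library. In width and position the ranges of the groups did not overlap, and the gaps exceeded the spread between replicates. With all peaks, p was 0.333 for each measure by exact permutation of the libraries (two-sided, n = 2), the smallest that 2 against 2 can give.

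Among the receptors, Epha7 had the strongest MafA region. Epha7 is an EphA receptor best known from the developing nervous system. Its region lay inside the gene 137.6 kb downstream of the start (chromosome 4, 28950463 to 28951252), with a fold enrichment of 8.20 and 9.16 in replicates 1 and 2 (8.68 ± 0.680, n = 2). Summits in the replicates were 27 bp apart and held 21 and 42 fragments. By fold enrichment the region stood at the 79.2nd percentile of all MafA regions and by fragments at the 28.7th, and the modelled background there was 1.68 and 2.53. Backgrounds are on the scale of the peak lists, in which fragments are multiplied by 1 and 0.746 in MafA replicates 1 and 2, while fragments are given unscaled.

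The other region of Epha7 showed the opposite. It lay 2.14 kb downstream of the start within the H3K4me3 region, with a fold enrichment of 2.73 and 3.09, at the 3.61st percentile, but 65 and 164 fragments, at the 86.1st. The background there was 23.2 and 39 on the scale of the peak lists. All 9 regions over H3K4me3 at the loci ranked higher by fragments than by fold enrichment, as did 3 of the 14 other regions there. The same counts were not taken over all MafA regions, so they do not show a trait particular to these loci.

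Epha2, a receptor of epithelial cells, had 4 regions, the most of any receptor. The strongest lay 14.2 kb upstream of the start (chromosome 4, 141286563 to 141287710) with 7.98 and 7.50 (7.74 ± 0.341), and the next 19.9 kb upstream with 4.91 and 4.88. The latter agreed closely between replicates and rested on 66 and 149 fragments. The remaining pair lay nearer to the neighbouring genes Arhgef19 and Fam131c, with means of 4.10 and 3.29. None of the 4 lay inside Epha2 and none overlapped the H3K4me3 region at its start.

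Epha5 had a single region, 309.2 kb into a gene of 363.1 kb (chromosome 5, 84107199 to 84109003), with 7.10 and 8.16 (7.63 ± 0.747). Its start, the most enriched for H3K4me3 of the 10 genes, had no MafA peak in either replicate. Replicate 2 had 3 further peaks at 3.98, 5.06 and 6.03 that replicate 1 lacked. With 50% reciprocal overlap required, the single region was lost too.

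Epha4 had a single region, 0.706 kb upstream of the start, with 2.29 and 4.30. The summits lay 1001 bp apart, so this region joins different positions, and it was lost under 50% reciprocal overlap, with equal numbers of peaks and when −log10 q had to reach 5. Ephb2, an EphB receptor, had no region in both replicates. Replicate 2 alone had 3 peaks inside the gene, at 4.13, 6.01 and 2.60, with 54, 47 and 23 fragments. Ephb3 had no MafA peak in either replicate. The EphB receptors were thus the 2 members without a MafA region.

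**Figure D2:**
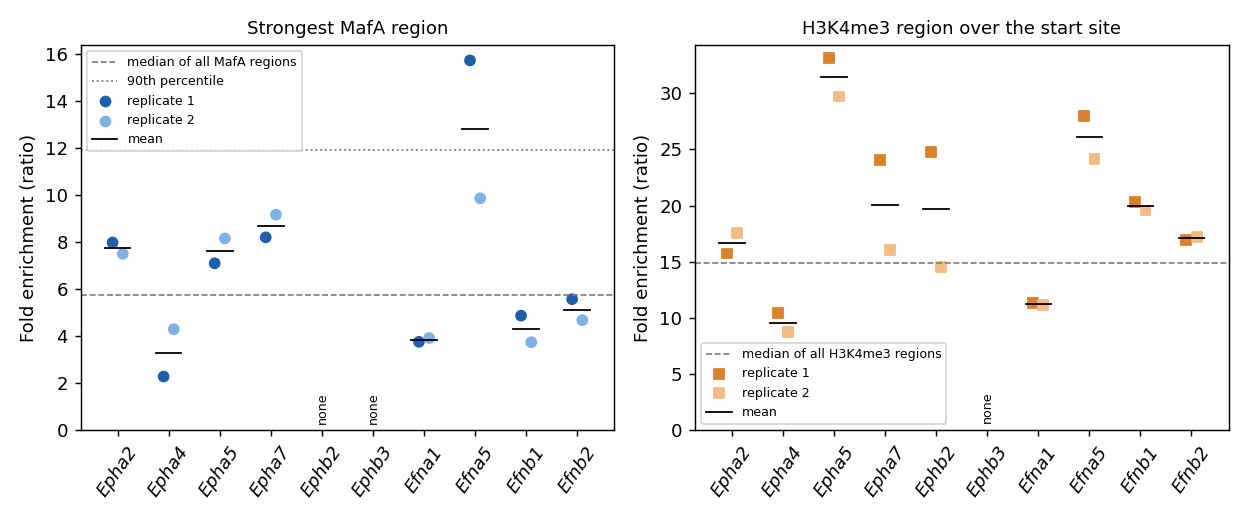
Fold enrichment (ratio) in replicates 1 and 2, with the mean as a bar, of the strongest MafA region of each gene (left) and of the H3K4me3 region over its start (right). Dashed lines are the medians of all MafA and all H3K4me3 regions, 5.75 and 14.9, and the dotted line is the 90th percentile for MafA, 11.9. Efna5 is the one gene with a mean above that line, and its replicate 2 value of 9.86 falls below it.

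Among the ephrins, Efna5 stood first in number and strength. Ephrin-A5 is the A-type ephrin known to signal between beta cells. Its locus held 15 peaks in MafA replicate 1 and 16 in replicate 2, which gave 11 regions, 9 of them inside the gene and 2 upstream. At least 11 regions were found at 1.39% of protein-coding genes. The window of Efna5 is long, 378.4 kb against a median of 117.2 kb, and of the 628 genes with a window at least as long 158 had 11 or more regions, with a median of 6. Per Mb, Efna5 held 29.1 regions and ranked 3152 of 21883, below Epha2 with 31.2.

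The strongest region of Efna5 lay inside the gene 97.0 kb downstream of the start (chromosome 17, 62783591 to 62784628), where the noncoding genes Gm52303 and Gm46583 are also annotated. Its fold enrichment was 15.7 and 9.86 (12.8 ± 4.14, n = 2), with 114 and 144 fragments and summits 10 bp apart. A region at 159.7 kb (62720931 to 62722186) differed the other way, with 6.49 in replicate 1 and 12.9 in replicate 2. Which of these regions was stronger therefore depended on the replicate.

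The region with the most fragments of the 23 lay 1.64 kb upstream of the Efna5 start (chromosome 17, 62882238 to 62883555). It had a fold enrichment of 11.3 and 10.3 (10.8 ± 0.706) and 224 and 522 fragments, at the 99.3rd percentile of all MafA regions by fragments and the 87.3rd by fold enrichment. The region overlapped the broad H3K4me3 region of the start, and a weaker region 2.73 kb upstream, at 2.51 and 3.46, did too. Of the 9 regions over H3K4me3 at the loci, that at 1.64 kb was the one with a mean fold enrichment over 10. In replicate 2 there were also peaks 0.424 and 1.64 kb downstream of the start, at 2.03 and 1.92, that replicate 1 lacked.

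The remaining regions of Efna5 ranged from 3.39 to 7.54 in mean fold enrichment and lay from 18.5 to 273.7 kb downstream of the start. Replicates were nearly equal at 180.2 kb (7.54 and 7.53) and at 273.7 kb (6.26 and 6.19), and differed at 30.1 kb (8.16 and 4.91), where H3K4me3 replicate 2 alone had a peak of 4.24. At 225.1 kb a region with 4.18 and 2.60 overlapped a weak H3K4me3 region inside the gene, with 6.45 and 5.48 for the mark. The gene thus carried MafA regions along most of its length and H3K4me3 of both replicates at 2 positions.

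**Figure D3:**
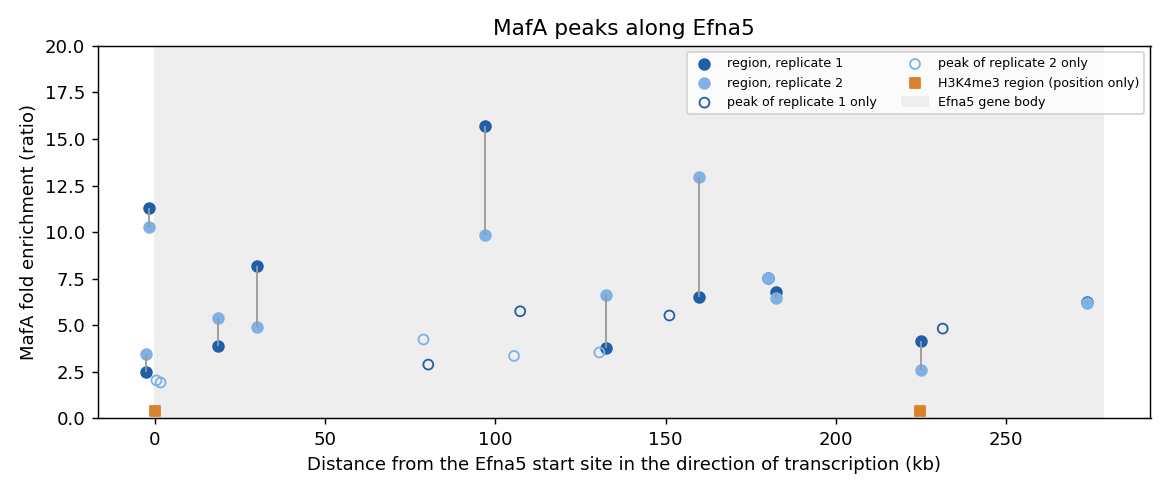
MafA fold enrichment (ratio) of each peak against distance from the Efna5 start in kb, with filled points for regions of both replicates, lines joining the replicates, open points for peaks of 1 replicate, squares for the positions of H3K4me3 regions and shading for the gene body. The highest points are at 97.0 kb (15.7 and 9.86) and 159.7 kb (6.49 and 12.9), and the regions closest to the start lie upstream of it.

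Efnb1, a transmembrane ephrin on the X chromosome, had a single region over its start (99135100 to 99136521), with 4.88 and 3.75 (4.31 ± 0.799) and 36 and 89 fragments. The summits were 552 bp apart. In replicate 2 a stronger peak of 5.89 lay 63.0 kb downstream of the start, at a place where H3K4me3 replicate 1 also had a peak that replicate 2 lacked. Efnb2, a transmembrane ephrin known from arterial vessels, had a region 0.364 kb upstream of the start (chromosome 8, 8660989 to 8662317), with 5.57 and 4.68 (5.13 ± 0.632) and 79 and 168 fragments. Another, at 4.20 and 4.22, lay inside the neighbouring gene Arglu1. Replicate 2 alone had peaks 9.74, 29.2 and 42.8 kb upstream of the Efnb2 start, at 3.61, 5.13 and 4.98, all nearest to Arglu1. That at 29.2 kb held 191 fragments. It and the peak at 42.8 kb were above the 4.68 of the start region in replicate 2, so the strongest place depended on the replicate.

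Efna1 lies in a gene-dense stretch of chromosome 3, with 8 H3K4me3 regions in its window, of which 1 covered its own start and the others were nearest to Muc1, Trim46, Krtcap2, Dpm3, Slc50a1 and Efna3. Its single MafA region lay 30.2 kb downstream of the start, nearest to Krtcap2, with 3.76 and 3.93 (3.85 ± 0.114). At Efna1 itself replicate 2 had a peak of 2.76 that replicate 1 lacked. No region therefore lay nearest to Efna1.

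Replicates matched less at the loci in MafA replicate 2 than in replicate 1. Of the peaks there, 79.3% of MafA replicate 1 and 51.1% of replicate 2 overlapped a peak of the other replicate, against 81.2% and 60.8% over the whole lists. The unmatched peaks, 6 in replicate 1 and 22 in replicate 2, had a median fold enrichment of 3.90. Their number was higher in replicate 2, which had more fragments per summit and also the longer list, 42747 peaks against 33013. A link to either was not tested.

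Several members border long stretches without protein-coding genes, and MafA regions there were assigned to the nearest such gene. Beyond 50 kb, 28 regions had a member as nearest gene, of which 11 belonged to Efnb2, 7 to Epha4, 5 to Efna5, 3 to Epha7 and 1 each to Epha5 and Efnb1. Nearness says nothing on which gene a region acts on. With those inside the windows, 16 regions were nearest to Efna5, 12 to Efnb2 and 8 to Epha4, and none to Ephb2, Ephb3 or Efna1.

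The distant regions included stronger ones than any in the windows. The region 1167.4 kb upstream of the Epha7 start (chromosome 4, 27644923 to 27646760) had 42.5 and 51.2 (46.9 ± 6.16) with 131 and 282 fragments, and ranked 7 of 25894 by mean fold enrichment. The gap from Epha7 to the next protein-coding gene on that side, Manea, was 2466.2 kb. At Efnb2 the strongest lay 520.8 kb from the start on the downstream side (chromosome 8, 8139214 to 8141199), with 21.8 and 31.1 (26.4 ± 6.57). At Epha4 it lay 504.1 kb downstream of the start (chromosome 1, 77010349 to 77012287), with 17.1 and 18.5 (17.8 ± 0.944). Of the 28, 7 had a mean over 10, where 15.1% of all MafA regions did. Against 23.5% of all MafA regions, 1 of the 28 overlapped an H3K4me3 region, that at 68.1 kb from Efnb1 with 11.3 and 15.7. Both shares cover all MafA regions, also those at gene starts. The 28 were taken over 50 kb from their nearest protein-coding gene, so little overlap with a mark of gene starts follows from that choice. No share was taken over other regions equally far from genes.

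**Figure D4:**
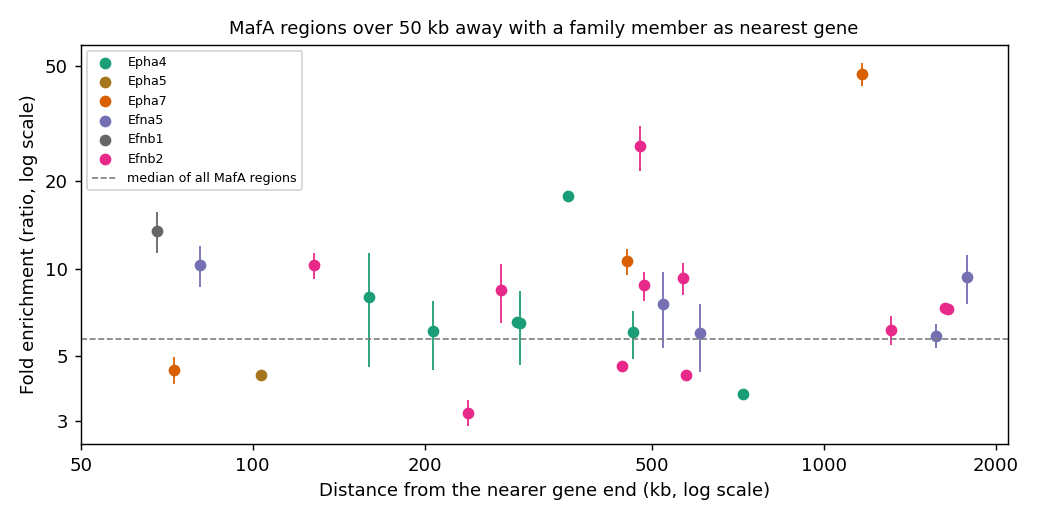
Mean fold enrichment (ratio, log scale) of the 28 MafA regions over 50 kb from any member whose nearest protein-coding gene is a member, against the distance from the nearer gene end in kb (log scale), with a line from replicate to replicate. The highest points are at Epha7 (46.9), Efnb2 (26.4) and Epha4 (17.8), and the dashed line is the median of all MafA regions, 5.75.

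The other genes of the pathway were counted from lists, which were also chosen with earlier results of these data known. Of 12 further Eph receptors and ephrins, 7 (58.3%) had a MafA region in the gene or within 50 kb, against 66.1% of protein-coding genes, and 8 (66.7%) were marked by H3K4me3 within 1 kb of a gene end, against 55.8%. The highest mean was at Epha8, 11.8 ± 1.05, and no gene of this list reached the 95th percentile of all MafA regions, 15.5. Epha8 was singled out after its values were seen.

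Of 38 genes that act downstream of Eph receptors or ephrins or process them, 34 (89.5%) had a MafA region, against 66.1% of protein-coding genes, and 33 (86.8%) were marked, against 55.8%. Since this list was drawn up with earlier results of these data known, its shares are a description and not independent support. At 15 of them the mean reached 10, against 1 of the 10 members and 19.5% of protein-coding genes. The windows of these 38 genes were longer, with a median of 195.2 kb against 117.2 kb. Of the 3484 protein-coding genes with a window of 150 to 250 kb, a range chosen after the data were seen, 80% had a MafA region and 27.5% one with a mean of at least 10. At or above the 95th percentile were 7 of the 38, against 7.29% of protein-coding genes. The windows of these 7 were long, from 243.2 kb (Rgs3) to 734.0 kb (Grip1). At this threshold no share was taken over genes with windows of like length. Vav3 had 35.6 and 25.5 (30.6 ± 7.20) and Vav2 21.7 and 20.9 (21.3 ± 0.528), both exchange factors that bind activated Eph receptors. The exchange factors Kalrn and Tiam1 had means of 16.7 and 16.3, and Chn2, a Rac-directed GTPase activator, had 16.2.

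The other 2 of the 7, Rgs3 and Grip1, encode proteins with PDZ domains that bind the tails of B-type ephrins. Their strongest regions had means of 20.5 ± 1.45 and 16.9 ± 2.95. The median window of the members, 196.0 kb, was close to that of this list. The members and the lists were not tested against each other.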

How the data were processed

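CUT&RUN libraries of MIN6 cells, sequenced as 150 bp pairs, were analysed from 4 peak lists, 2 of MafA and 2 of H3K4me3, grouped by sample title. Per the submitters' processing notes, MACS2 was used with GRCm38 (mm10). The version, aligner, control and duplicate handling are not given in the sources used here. The authors deposited 1 list per library, with fold enrichment as a linear ratio at the summit, and with p-values and q-values as −log10, the lowest −log10 q being 2.00. The deposited score column was not used. Positions are 1-based.

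Computation used numpy 2.4.6 and scipy 1.17.1 under Python 3.11.15, with pandas 2.3.3 for tables and matplotlib 3.10.9 for plots. Regions, windows, gene ends (1 kb) and percentiles are as stated in the report. Gene positions, strands and promoter sequences came from RefSeq tables of GRCm38.p6, in which all 10 members were found. The planned motif search at summits needs genome sequence, and promoter windows were searched in its place. Fragments were recovered as whole numbers, scaled by 0.415, 0.997, 1 and 0.746 in H3K4me3 replicates 1 and 2 and MafA replicates 1 and 2, whose −log10 p, computed from a fold of (pileup + 1) / (background + 1) and a Poisson model, differed from the deposited one by at most a share of 0.0001. They solved 99.2% and 99.3% of MafA peaks and all H3K4me3 peaks tried, and the routine was tested on simulated data. Library values were compared by exact permutation.

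Named genes were the members, their strongest region and any with a mean over 10, and list genes at or above the 95th percentile. The members and lists were chosen with earlier results of these data known. Replicate numbers are not said to pair the libraries. Also tried were leaving out single libraries, blocking by replicate, 10 kb windows, 500 bp from gene ends, 50% reciprocal overlap, ranks by fragments, peaks with −log10 q from 5 up and the same number of top peaks per library.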

Additional observations from a re-analysis of the deposited data

How the results depend on the processing

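Equal numbers of the strongest peaks changed most. The difference in peaks per library (MafA minus H3K4me3) turned from 12 to -12 (5 at a −log10 q from 5 up). The MafA regions fell from 23 to 9, the genes with one from 8 to 4 and the regions over H3K4me3 from 9 to 1. Fewer peaks entered, and they were picked by fold enrichment, by which all 9 regions over H3K4me3 ranked lower than by fragments. The part of each in the falls was not tested. Under the other alternatives that kept both replicates the regions numbered 17 or 18, the genes 6 or 7 and the regions over H3K4me3 6 to 8, and the H3K4me3-marked genes stayed at 9. Taking each MafA replicate alone gave 29 to 45 peaks at 8 to 9 genes, and leaving out any library gave 9 to 15 over H3K4me3 and 9 to 10 marked genes. The differences ranged from 4 to 20 peaks, from -1255 to -997 bp and from -57.4 to -45.6 percentage points when a library was left out, with no test. Epha4 lost its region under 3 settings, Efna1 under 2, and Epha2, Epha5, Efnb1 and Efnb2 under 1 each. Of the 39 values of strongest regions left, 1 moved beyond the spread between replicates, Efnb1 without MafA replicate 1, at 5.89. This count says little on stability, since it was nearly fixed in advance. Settings that kept both replicates left the value unchanged or lost the region. A single replicate of the same region always lies within the SD of the pair. Without MafA replicate 1 the strongest peak of Efna5 (12.9, at 159.7 kb) and of Efnb2 (5.13, 29.2 kb upstream) lay at another place. Both were still counted as unmoved, since only the value was compared. The 5.89 of Efnb1 was also at another place. Ranked by fragments, the percentile of the strongest region moved beyond the spread between replicates for 7 of 8 genes, all but Efna5.

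A replicate block left the differences at 12 peaks, -1126 bp and -51.5 points, and its exact permutation p was 0.5, the smallest it can give. Deviations of same-numbered libraries had a correlation of 0.033 over 6115 overlapping region pairs. A low value cannot show whether same-numbered libraries shared a culture or batch, which the labels do not say. No test in this design can pass 0.05, which says nothing about stability. The search for MAF motifs at MafA summits and its alternative window were not run, since genome sequence was not used here. Fragments at the loci went down to 9 in MafA replicate 1 and 16 in replicate 2, which limits peaks found in 1 replicate.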

Other observations

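The genes outside the family whose counts and strengths in the same window lay nearest to those of Efna5 were Nostrin, Tenm2, Gnao1, Prmt3 and Fars2, with 11 or 12 MafA regions, a strongest region of 12.0 to 12.9 and 2 H3K4me3 regions each. Their distances to Efna5, over 3 values per gene on the log2(value + 1) scale, ran from 0.0064 (Nostrin) to 0.12 (Fars2). Those nearest to Epha7 included Ccdc90b, Fam169b, Met and Lrp1b, each with 2 MafA regions, 1 H3K4me3 region and a strongest region of 8.61 to 8.70. The likeness rests on these 3 values from the same 4 libraries and not on the position of the regions.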
